A study of Mus musculus with 12 samples.

Results

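Transverse aortic constriction (TAC) ties a suture round the aortic arch, so that the left ventricle has to eject against a higher pressure, and it was compared with a sham operation in mouse hearts across 2 diets at once. The TAC libraries were 3 from mice on the fat-free diet (0% of energy as fat) and 3 from mice on the high-fat diet (60%). The sham libraries were 3 with the fat-free and 2 with the high-fat diet. All TAC columns and all sham columns with a diet in the deposited tables were taken, so 6 TAC and 5 sham libraries, 11 of the 12 in the labels, entered 1 fit in which diet was an additive term. The effect reported is the TAC effect common to both diets. All mice were C57Bl/6J, aged 12 weeks, and the labels name no transgene or mutant allele. Diets began 4 days before surgery and went on until the hearts were taken 1 week after it, and the labels give neither sex nor the part of the heart used. The first high-fat sham replicate of the labels is not analysed here. The labels do not say whether each library came from a separate mouse, so the p-values measure the spread between these libraries.

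Pressure overload makes heart muscle cells enlarge and switch back on genes of the fetal heart, among them skeletal alpha-actin, beta-myosin and the natriuretic peptides. Fibroblasts are activated and lay down matrix, macrophages accumulate, and the muscle turns away from fatty acid oxidation, the main fuel of the adult heart. Fatty acids are ligands of PPAR alpha, the nuclear receptor that drives fatty acid oxidation genes, so diet bears on the same pathway.

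Values were the authors' normalized read counts, scaled within each diet. Each diet is 1 deposited table, so diet and table cannot be told apart, and the diet term absorbs both. Totals per library were 25906622 to 31499798 in the TAC and 31274316 to 39699027 in the sham libraries. Transcripts of the mitochondrial genome took 18.1% to 25.3% of the values in TAC and 26.2% to 32.8% in sham libraries, without overlap. Heart muscle markers were high in all 11 libraries, with sums over 10 ventricular genes of 1135379 to 2141910 in TAC and 1845721 to 2305943 in sham. Some libraries stood apart for transcripts of atrial muscle and fat. Myl7, the atrial myosin light chain, was at 1758, 23 and 75 in fat-free TAC, 14839, 10 and 6 in high-fat TAC, 9915, 274 and 8426 in fat-free sham, and 4 and 6 in high-fat sham libraries. High-fat TAC replicate 1 had the highest sums of 10 atrial genes (506137), 9 fat cell genes (2829) and 9 epicardial genes (3894) and the lowest ventricular sum (1135379). Correlation of log2 values between replicates was 0.951 to 0.984 in high-fat TAC, and 0.977 to 0.991 over the pairs of the other 3 groups. In bulk tissue, fewer cells of a type and less RNA per cell cannot be told apart.

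**Figure D1:**
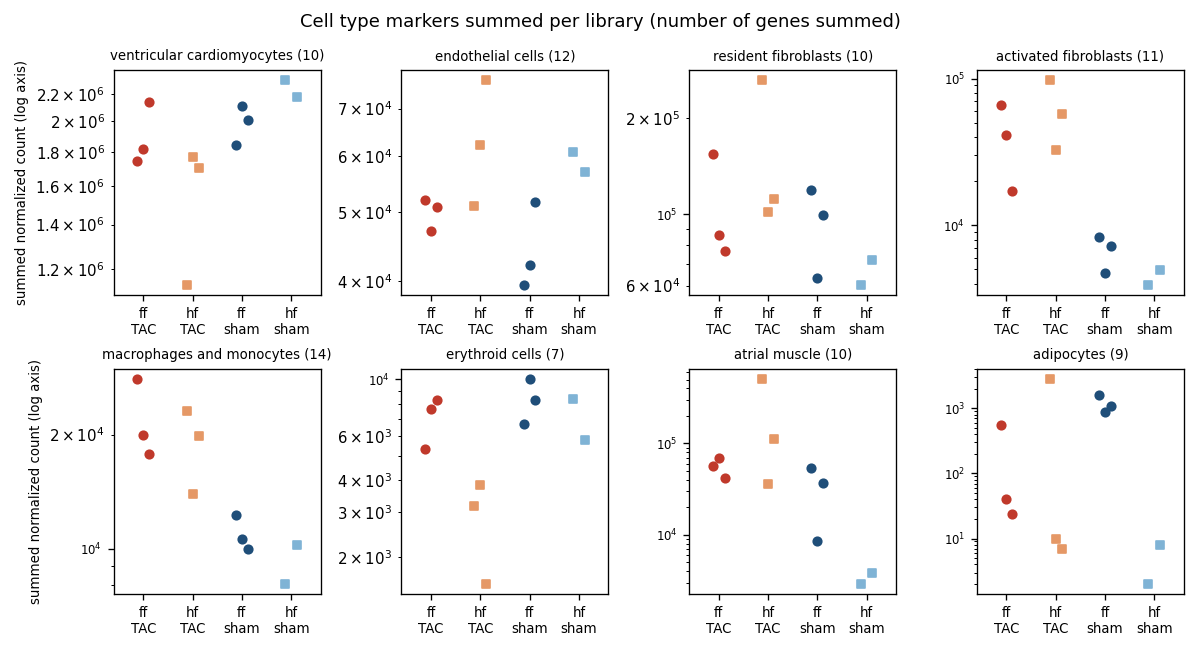
Sums of normalized counts (log axis) of 8 lists of cell type markers in each library, in fat-free (ff) and high-fat (hf) TAC and sham hearts, with the number of genes summed in parentheses. The activated fibroblast sum was 17040 to 97383 in the 6 TAC libraries and 3910 to 8350 in the 5 sham libraries, while the adipocyte sum ran from 7 to 2829 in TAC and from 2 to 1599 in sham libraries.

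With diet as an additive term, TAC was associated with a change in a large share of the genes tested. Of 14033 genes tested (a normalized count of at least 10 in at least 5 libraries), 7367 passed adjusted p under 0.1, which is 52.5%. Of these 3668 were higher (26.1% of the genes tested) and 3699 lower (26.4%) in TAC. These shares are the background for the list counts below. At adjusted p under 0.05, 5981 genes passed, and with no diet term 6372 passed adjusted p under 0.1. Changes of 2-fold or more were lopsided, with 1141 genes higher and 280 lower. The median log2 fold change of all genes tested was -0.02. The split between higher and lower depends on the scale. When each library was scaled to the same total the median became 0.25 and 6661 genes were higher and 1234 lower. With the same total outside the mitochondrial genome the median was 0.10, with 4694 higher and 2342 lower. Changes below are therefore relative to the median gene of the authors' scaling. In 4154 genes (29.6% of those tested) the TAC and the sham libraries did not overlap within either diet, 2209 with TAC higher and 1945 with TAC lower, and 4125 of these genes were called.

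The 2 diets share no control libraries, so their TAC effects can be set side by side. Over all 14033 genes the fold changes of the 2 diets had a Pearson correlation of 0.75 and a Spearman correlation of 0.75 across genes, which are not independent replicates and within each diet share a table. The sign was the same in 80.7% of all genes. It was the same in 7364 of the 7367 called genes, a share that the choice by the summed effect largely fixes, and in 59.3% of the genes not called. Within the fat-free diet 3211 genes (22.9%) were called and within the high-fat diet 5918 (42.2%), from 1 fit with all 4 groups. Both diets called 2523 genes with the same sign and 7 with opposite signs. The test of the difference between the diets' effects in limma called 0 of 14033 genes (0%), with 613 at an unadjusted p under 0.05. No other tool was run for it. Of the called genes 72.8% had the larger absolute fold change on the high-fat diet, with a median of 0.58 there and 0.41 on the fat-free diet, a difference that was not tested over libraries. Counts within a diet rested on single libraries. The fat-free count was 1579 without fat-free TAC replicate 1, 1216 without TAC replicate 2, 1674 without sham replicate 1 and 1797 without sham replicate 2. The high-fat count was 728 without high-fat sham replicate 2 and 2786 without sham replicate 3. The count with diet as a block stayed between 5744 and 7636 when any 1 library was left out.

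**Figure D2:**
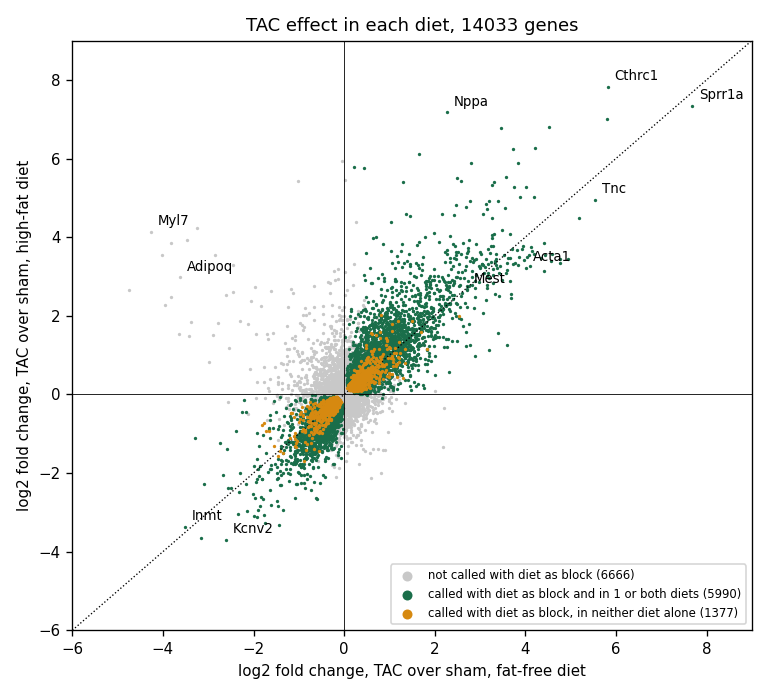
Log2 fold change of TAC over sham on the fat-free diet (x axis) and on the high-fat diet (y axis) for the 14033 genes tested, with the dotted line marking equal effects. Green points (5990) passed with diet as a block and in at least 1 diet, and orange points (1377) passed with diet as a block but in neither diet alone. Myl7 and Adipoq lie among the grey points at the upper left, without passing the test. They were lower in TAC on the fat-free diet and higher on the high-fat diet, there through 1 library, TAC replicate 1.

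Pooling the diets lowered the median standard error of a log2 fold change to 0.12, against 0.16 within the fat-free and 0.18 within the high-fat diet. It added 1377 genes that passed in neither diet alone, 637 higher and 740 lower in TAC. All had the same sign in both diets, which the choice by the summed effect largely fixes. Their median absolute log2 fold change was 0.28, against 0.49 over all called genes, and 53 of them changed 2-fold or more. Only 323 of the 1377 had TAC and sham libraries that did not overlap within either diet. Over all genes tested this share was 29.6%, and over all called genes 56.0%. Another 609 genes passed within at least 1 diet and not with diet as a block. The 1377 became 3287 without high-fat sham replicate 2 and 2465 without high-fat sham replicate 3, and 2245 with the 2 diets fitted separately.

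The 10 genes of smallest adjusted p among them show what pooling added. Gata6, a zinc-finger transcription factor of heart development, was at 1649, 1559 and 1564 in fat-free TAC and 1459, 1745 and 1431 in high-fat TAC libraries, against 2346, 1747 and 1857 in fat-free sham and 1852 and 1926 in high-fat sham libraries. Each TAC library was below every sham library of its diet, and the fold change was -0.30 ± 0.08 (log2 ± SE, adjusted p = 0.0147), from -0.31 with the fat-free and -0.30 with the high-fat diet. Ticam1, the adaptor of Toll-like receptor 3, had 382, 437 and 425 in fat-free TAC and 435, 363 and 396 in high-fat TAC libraries, against 378, 329 and 312 in fat-free sham and 322 and 334 in high-fat sham libraries. It was higher in TAC by 0.28 ± 0.08 (adjusted p = 0.0155), with no overlap within either diet. Slc25a25, a calcium-dependent carrier of ATP and phosphate in the mitochondrial membrane, rose by 0.69 ± 0.19, with 351, 670 and 412 in fat-free TAC and 374, 249 and 352 in high-fat TAC libraries, against 239, 247 and 399 in fat-free sham and 186 and 209 in high-fat sham libraries. Its groups overlapped on the fat-free diet, where 1 sham library at 399 exceeded 1 TAC library at 351. Rflnb, a filamin regulator, rose by 0.61, Lcorl by 0.50, and Ormdl2, a regulator of sphingolipid synthesis, by 0.33. Hsd17b11, a lipid-droplet dehydrogenase, fell by 0.51, the zinc-finger gene Zfp958 by 0.37, Pcbp2, an RNA-binding protein, by 0.24 and Ppp4r2, a subunit of protein phosphatase 4, by 0.20. The calls of Gata6, Zfp958, Pcbp2, Ppp4r2 and Hsd17b11 ended with each library scaled to the same total, where Pcbp2 stood at 0.03 and Ppp4r2 at 0.06. Without the 4 libraries over 1000 Myl7 that of Ppp4r2 ended too (-0.16). Exons of Dnajc14 on the opposite strand cover 66.7% of the exon bases of Ormdl2, and those of Map3k12 cover 30.2% of Pcbp2, so reads could be shared if the authors' counting ignored strand, which the sources used here do not say.

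**Figure D3:**
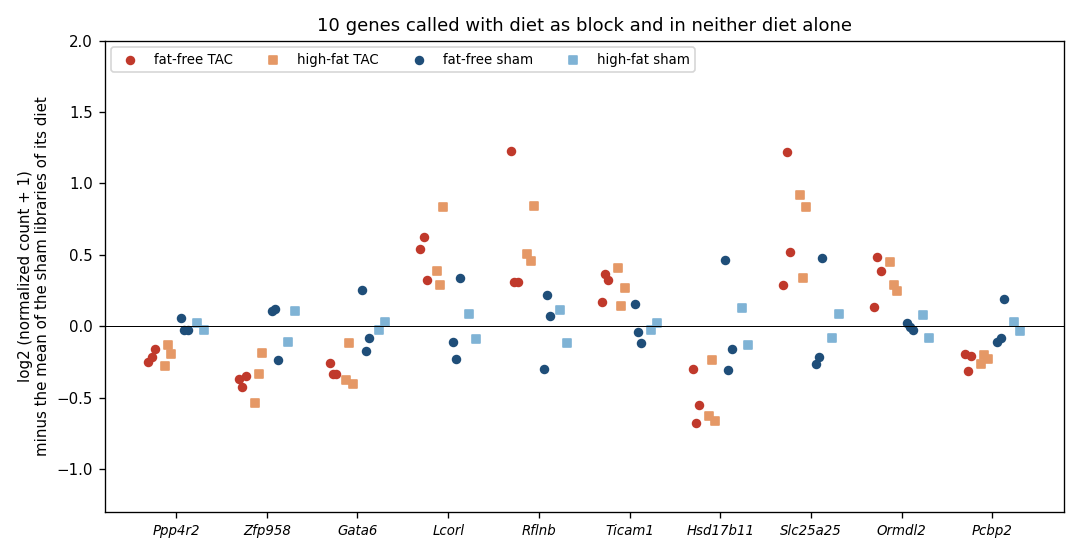
Log2 of the normalized count plus 1 in each library, minus the mean of the sham libraries of its diet, for the 10 genes of smallest adjusted p that passed with diet as a block and in neither diet alone. The shifts are small, from -0.51 (Hsd17b11) to 0.69 (Slc25a25) in the fit. They point the same way in both diets, which the choice of these genes by the summed effect largely fixes.

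Of the 10 genes of smallest adjusted p across all those tested, 9 act in cell division. Cdk1, the kinase that drives entry into mitosis, was at 289, 555 and 338 in fat-free TAC and 597, 508 and 1016 in high-fat TAC libraries, against 17, 19 and 27 in fat-free sham and 39 and 62 in high-fat sham libraries. All TAC libraries lay far above all sham libraries, and the fold change was 3.96 ± 0.24 (adjusted p = 1.01e-05). Mki67, found in dividing and not in resting cells, rose by 3.59 ± 0.23, the kinetochore motor Cenpe by 3.35 ± 0.19, the spindle protein Spag5 by 3.30 ± 0.19 and survivin, Birc5, by 3.54 ± 0.22. Mest, an imprinted gene of mesoderm that is quiet in the adult heart (chr6:30733506-30748466, mm10), shared the smallest adjusted p of the table (9.39e-06). It was at 797, 884 and 692 in fat-free TAC and 1269, 1488 and 1982 in high-fat TAC libraries, against 90, 139 and 134 in fat-free sham and 221 and 265 in high-fat sham libraries, a rise of 2.70 ± 0.14. Exons of Copg2 on the opposite strand cover 23.1% of its exon bases. Its effect was 2.72 with the fat-free and 2.68 with the high-fat diet although both its TAC and its sham values were higher in the high-fat table. Among mitosis and cytokinesis genes 38 of 40 rose, all by 2-fold or more and all with no overlap within either diet, and 2 did not pass. Their median was 3.22, beside -0.02 for all genes tested. Among 39 genes of DNA replication and S phase, 34 rose and 5 did not pass, including thymidine kinase Tk1 (2.50), the transcription factor E2f1 (2.64) and the maintenance factor of DNA methylation Uhrf1 (2.98). Of 25 p53 targets and cell cycle inhibitors 13 rose, 5 fell and 7 did not pass, beside 26.1% higher and 26.4% lower over all genes tested. Trp53 itself rose by 0.63 and its target Bax by 0.56, while Cdkn1c, the inhibitor p57 (overlapped on the opposite strand over 30.7% of its exon bases), fell by 1.43. The count that fell was 3 without fat-free TAC replicate 1, high-fat sham replicate 2 or high-fat sham replicate 3.

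The promoter of Cdk1 is shown because the cell cycle genes moved together. It holds the cell cycle genes homology region (CHR, letters TTTGAA), through which repressor complexes act in resting cells, at 2 places, marked in capitals. The sequence is the 250 bases before the start of the gene in RefSeq, build GRCm38.p6, minus strand, chr10:69352913-69353162.
Cdk1: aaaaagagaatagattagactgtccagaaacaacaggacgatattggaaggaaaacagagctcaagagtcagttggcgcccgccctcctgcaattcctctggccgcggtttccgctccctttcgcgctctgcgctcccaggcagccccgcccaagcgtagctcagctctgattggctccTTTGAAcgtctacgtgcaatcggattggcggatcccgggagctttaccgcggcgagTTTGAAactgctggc
The capitals lie at positions -71 to -66 and -15 to -10, counted back from the first base of the gene. In windows of 300 bases, 250 before and 50 after the start, TTTGAA stood on either strand in 26 of the 34 promoters found for the mitosis list (76.5%), in 18.1% of 27025 promoters of the table and in 11.6% of the 10622 found for the genes tested. This is a description of the letters and shows no binding.

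Matrix genes made up most of the largest rises. Of the 12 largest among genes with no overlap within either diet and a mean of at least 50, Cthrc1, C1qtnf3, Cemip, Tnc, Col9a2, P4ha3 and Postn encode secreted or matrix-modifying proteins. Postn, the matricellular protein periostin of activated fibroblasts, was at 44615, 28563 and 9630 in fat-free TAC and 59813, 19996 and 36201 in high-fat TAC libraries, against 2077, 602 and 1612 in fat-free sham and 918 and 1267 in high-fat sham libraries. The TAC libraries differed widely among themselves, with fat-free TAC replicate 3 lowest, yet all lay above all sham libraries, with a fold change of 4.56 ± 0.45 (adjusted p = 8.11e-05). Cthrc1, a collagen triple helix repeat protein that promotes collagen turnover, had 1682, 362 and 142 in fat-free TAC and 2823, 483 and 651 in high-fat TAC libraries, against 11, 3 and 9 in fat-free sham and 5 and 2 in high-fat sham libraries, a rise of 6.71 ± 0.70. Tenascin C, Tnc, rose by 5.28, C1qtnf3 by 6.33, Cemip, which breaks down hyaluronan, by 5.53, and the collagen prolyl hydroxylase P4ha3 by 4.93. C1qtnf3 stood at 5.65 without fat-free TAC replicate 1 and 6.96 without fat-free TAC replicate 2, and without fat-free TAC replicate 3 Cemip stood at 6.16 and P4ha3 at 5.60.

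In the extracellular matrix and fibrosis list 45 of 50 genes rose and 5 did not pass, with a median of 2.29, and 43 rose 2-fold or more. Over all genes tested 26.1% rose. Col15a1, a basement membrane collagen, rose by 2.07 ± 0.17, and the short-chain collagen Col8a1 by 3.54 ± 0.30, with 8678, 6392 and 2560 in fat-free TAC and 11614, 4456 and 7411 in high-fat TAC libraries, against 486, 381 and 492 in fat-free sham and 569 and 684 in high-fat sham libraries. Col1a1, a chain of type I collagen, rose by 3.14. Among 24 genes that crosslink and process matrix 21 rose, 1 fell and 2 did not pass, with lysyl oxidase-like Loxl2 (2.48) and Loxl4 (2.06) and transglutaminase Tgm2 (1.21) higher, and P3h4, a subunit for lysine hydroxylation of collagen, lower (-0.60). Of 30 matrix proteases and inhibitors 20 rose, 3 fell and 7 missed the threshold, and 1 fell without high-fat sham replicate 2 or 3. The aggrecanase Adamts4 rose by 2.90 and Adam12 by 3.73. Gelatinase Mmp9 fell by 2.05, with 27, 14 and 9 in fat-free TAC and 9, 19 and 17 in high-fat TAC libraries, against 44, 40 and 36 in fat-free sham and 307 and 44 in high-fat sham libraries. The value of 307 was a single library, without which Mmp9 fell by 1.41. In the TGF-beta list of 29 genes 15 rose, 3 fell and 11 missed the threshold, and 5 fell without high-fat TAC replicate 1. The follistatin-like genes Fstl1 (2.51) and Fstl3 (1.94, with Prss57 on the opposite strand over 47.3% of its exon bases) were higher, and Bmp6, a ligand of the bone morphogenetic branch, was lower (-0.80). Of 11 markers of activated fibroblasts 9 rose, and of 10 of resident fibroblasts 5 rose. The 1 that fell among the resident markers, Gsn, an actin-severing protein, was at 29234, 16416 and 29856 in fat-free TAC and 13641, 26135 and 10923 in high-fat TAC libraries, against 76615, 38947 and 62123 in fat-free sham and 31865 and 38572 in high-fat sham libraries, a fold change of -1.20 ± 0.26.

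The fetal and hypertrophy program came next in the size of its median (1.73 over 20 genes), with 16 genes higher, 1 lower and 3 not passing. Acta1, the skeletal alpha-actin, was at 59394, 172749 and 85778 in fat-free TAC and 51774, 47387 and 94646 in high-fat TAC libraries, against 5725, 4520 and 8009 in fat-free sham and 6933 and 6311 in high-fat sham libraries. The groups were far apart in both diets, and the fold change was 3.66 ± 0.30 (adjusted p = 2.95e-05). Myh7, the slow beta-myosin, was at 39649, 28367 and 25028 in fat-free TAC and 21135, 24486 and 27059 in high-fat TAC libraries, against 6116, 1121 and 4164 in fat-free sham and 1368 and 1460 in high-fat sham libraries, also 3.66, with an SE of 0.37. Its sham values on the fat-free diet were high in the libraries that held over 1000 Myl7. Without the 4 libraries over 1000 Myl7 its fold change was 4.34. Nppb, B-type natriuretic peptide, rose by 1.86 ± 0.28, with 12060, 22278 and 18451 in fat-free TAC and 16876, 11487 and 18378 in high-fat TAC libraries, against 2421, 8249 and 3832 in fat-free sham and 4573 and 4981 in high-fat sham libraries. Nppa, the atrial natriuretic peptide, rose by 4.45 ± 0.91, from 2.28 with the fat-free and 7.17 with the high-fat diet. The difference of 4.89 between diets had an unadjusted p of 0.00177 in limma and did not pass (adjusted p = 0.795). Nppa was at 47350, 66419 and 39003 in fat-free TAC and 402581, 33860 and 106638 in high-fat TAC libraries, against 18967, 4981 and 11302 in fat-free sham and 505 and 1220 in high-fat sham libraries. The highest value was in the library with the most Myl7, and the part of atrial tissue in this rise was not tested. An antisense gene covers 61.5% of the exon bases of Nppa. Nppa stood at 3.70 without high-fat sham replicate 2 and at 5.09 without the 4 libraries over 1000 Myl7. Rcan1, a feedback inhibitor of calcineurin, rose by 1.44 ± 0.15, and 4833412C05Rik, a long noncoding RNA that RefSeq also lists as Bigheart, rose by 4.84 ± 0.79 (4.17 without high-fat sham replicate 2). Gdf15, a stress cytokine, rose by 2.96, and Hopx, a homeodomain-only protein with an antisense gene over 27.2% of its exon bases, fell by 1.34.

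The upstream bases of Acta1 and Nppb are shown because both rise with load and carry the elements known from muscle promoters: the MCAT element bound by TEAD factors (letters CATTCC), the TATA box (TATAAA) and, in Acta1, the CArG box bound by serum response factor. Capitals mark these elements on either strand, where the MCAT element of Nppb is read on the opposite strand. Both are the 250 bases before the gene start in RefSeq, build GRCm38.p6, at chr8:123894776-123895025 (minus strand) and chr4:147985650-147985899 (plus strand). Counted back from these starts, TATAAA lies at -7 to -2 in Acta1 and at -31 to -26 in Nppb. The Acta1 gene as counted begins at 123894736, downstream of the start used here.
Acta1: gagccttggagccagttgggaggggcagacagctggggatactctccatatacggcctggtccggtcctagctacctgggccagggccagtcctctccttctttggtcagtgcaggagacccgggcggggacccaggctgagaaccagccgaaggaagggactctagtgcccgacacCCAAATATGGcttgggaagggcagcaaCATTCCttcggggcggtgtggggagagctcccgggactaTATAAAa
Nppb: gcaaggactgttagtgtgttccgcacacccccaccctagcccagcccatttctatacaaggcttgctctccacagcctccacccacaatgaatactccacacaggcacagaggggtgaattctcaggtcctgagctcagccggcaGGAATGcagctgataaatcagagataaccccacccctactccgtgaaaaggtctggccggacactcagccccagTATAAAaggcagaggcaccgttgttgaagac
In windows of 300 bases CATTCC stood on either strand in 6 of 17 promoters found for the fetal list and in 14.6% of all promoters of the table. The CArG box stood in 3 of 17 and in 1.57% of all, and TATAAA in 4 of 17 and in 14.2% of all. These are matches of letters only.

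Adult muscle genes moved less, and in both directions. In the contractile and calcium handling list, 4 of 30 genes were called higher and 10 lower, beside 26.1% and 26.4% of all genes tested. Without high-fat TAC replicate 1, 8 were higher. With each library scaled to the same total the counts were 11 higher and 7 lower, so the direction of this list depends on the scale. The calcium pump Atp2a2, which refills the sarcoplasmic reticulum, was at 255233, 239830 and 277417 in fat-free TAC and 166310, 332796 and 268711 in high-fat TAC libraries, against 411055, 416408 and 408489 in fat-free sham and 462812 and 468107 in high-fat sham libraries. All TAC values lay below all sham values and the fold change was -0.79 ± 0.25 (adjusted p = 0.0264). The call ended with no filter on low values (adjusted p = 0.113) and without the 3 fat-free libraries over 1000 Myl7 (adjusted p = 0.117). Tnni3, cardiac troponin I, fell by 0.98 and the titin cap Tcap by 0.78, while the sodium-calcium exchanger Slc8a1 rose by 0.52. Myh6, the fast alpha-myosin of the adult mouse ventricle, was at 448175, 379024 and 530083 in fat-free TAC and 269274, 469756 and 434570 in high-fat TAC libraries, against 537194, 492787 and 595390 in fat-free sham and 676632 and 613801 in high-fat sham libraries. Its fold change of -0.49 ± 0.30 did not pass (adjusted p = 0.208). It did pass with value-wise weights, library weights, a robust prior, Myl7 or adipocyte markers as a covariate, or 1 prior variance for all genes (adjusted p = 0.00843 to 0.0665). The fit takes its prior variance from the trend over all genes, which few genes of such abundance define.

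Of 25 potassium and sodium channel genes 18 fell, 4 rose and 3 did not pass. With each library scaled to the same total 11 fell and 5 rose, and 2 rose without fat-free TAC replicate 2 or high-fat sham replicate 3. Kcnv2, a silent subunit that modifies Kv2 channels, was at 75, 32 and 114 in fat-free TAC and 18, 208 and 54 in high-fat TAC libraries, against 480, 426 and 318 in fat-free sham and 838 and 734 in high-fat sham libraries, a fold change of -3.10 ± 0.54. Kcnj2, the inward rectifier that sets the resting potential, fell by 1.08, and Kcnj3, an atrial acetylcholine-gated rectifier, by 0.92. Kcnq1, the pore of the slow delayed rectifier, rose by 0.34. Of 24 genes of the CaMKII, calcineurin and MEF2 pathway 4 rose and 9 fell (2 rose without fat-free TAC replicate 1 or 3, fat-free sham replicate 2 or high-fat sham replicate 3). Both Camk2a (-0.75) and Camk2b (-0.69), subunits of calcium-calmodulin kinase II, fell. Among 34 genes of G protein receptors and cyclic nucleotides 6 rose and 9 fell, including the alpha1B adrenergic receptor Adra1b (-0.93) and phosphodiesterase Pde4d (-0.65), with the regulatory subunit of protein kinase A Prkar1a higher (0.83). Beside 26.4% lower and 26.1% higher over all genes tested, 9 of 34 genes lower in the G protein list is near the background and no result about it. With the same total per library, the last 2 lists turned to 10 higher and 3 lower, and 11 higher and 5 lower.

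**Figure D4:**
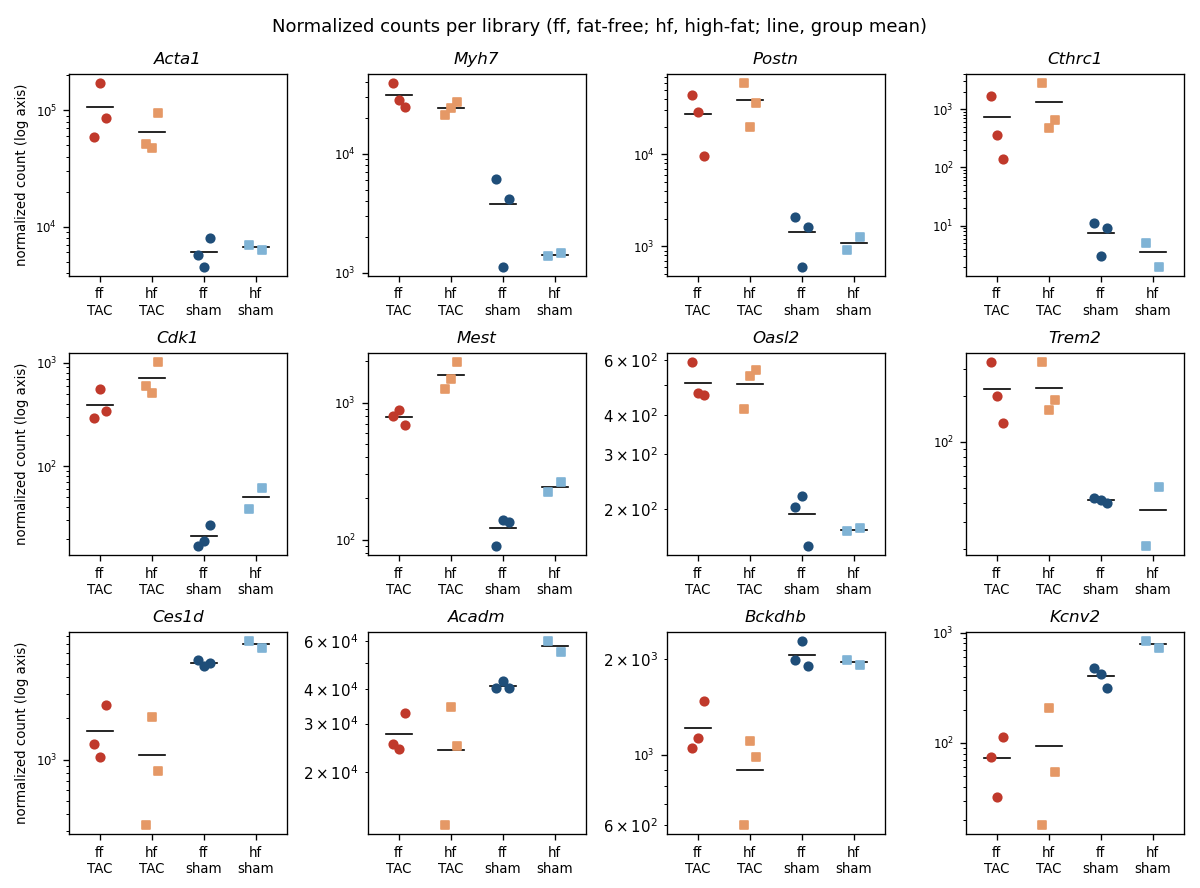
Normalized counts (log axis) of 12 genes in each library of fat-free (ff) and high-fat (hf) TAC and sham hearts, with the group mean as a line. Acta1, Myh7, Postn, Cthrc1, Cdk1, Mest, Oasl2 and Trem2 were higher and Ces1d, Acadm, Bckdhb and Kcnv2 lower in TAC, each with no overlap between the TAC and sham libraries of a diet.

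Most genes of fatty acid use fell. In the list for fatty acid uptake and beta-oxidation 35 of 40 genes fell, 1 rose and 4 did not pass, with a median of -0.67. With TAC lower, 25 had no overlap within either diet. Over all genes tested 26.4% were lower and 29.6% had no overlap, in either direction. Within the fat-free diet 9 of the 40 passed, near the 22.9% of all genes, and within the high-fat diet 37, beside 42.2%. The medians were -0.44 and -0.94. With each library scaled to the same total 25 fell. Acadm, the medium-chain acyl-CoA dehydrogenase, was at 25307, 24305 and 32840 in fat-free TAC and 12793, 34599 and 24816 in high-fat TAC libraries, against 40373, 42823 and 40568 in fat-free sham and 59944 and 54806 in high-fat sham libraries, a fold change of -0.94 ± 0.24 (adjusted p = 0.0101). The malonyl-CoA decarboxylase Mlycd, which relieves the block on mitochondrial fatty acid entry, fell by 1.08 ± 0.19, and the fatty acid transporter Slc27a1 by 1.04 ± 0.20. The 1 that rose, the transporter Slc27a6, was low throughout, with 9 to 30 in TAC and 4 to 8 in sham libraries. Cpt1b, the muscle carnitine palmitoyltransferase, stood at -0.40 ± 0.16 (adjusted p = 0.0675), and its call was lost in 4 of 11 fits that each left out 1 library, at -0.39 without fat-free TAC replicate 1 or 2, -0.36 without high-fat sham replicate 2 and -0.34 without high-fat sham replicate 3. A read-through gene on the same strand covers 81.4% of its exon bases, so reads could be lost to that overlap. Of 24 PPAR alpha targets 13 fell, 1 rose and 10 did not pass, beside 26.4% lower and 26.1% higher over all genes tested. The gene that rose was Ucp2 (0.71 ± 0.27, limma, adjusted p = 0.0505), with overlapping libraries on the fat-free diet. The acyl-CoA thioesterase Acot1 fell by 2.39 ± 0.37, with reads that may be shared with its close relatives, and the retinol saturase Retsat by 1.01. Pdk4, the kinase that shuts down pyruvate oxidation, did not pass (-0.23 ± 0.48, adjusted p = 0.725). It was at 22382, 22870 and 10669 in fat-free TAC and 18768, 29997 and 32792 in high-fat TAC libraries, against 33293, 4808 and 35870 in fat-free sham and 43078 and 31632 in high-fat sham libraries. Its value depended on the libraries and the scale. Without the low fat-free sham replicate 2 Pdk4 stood at -0.73 (adjusted p = 0.0468), but at 0.30 without the 3 fat-free and 0.54 without the 4 libraries over 1000 Myl7, and at 0.04 with each library scaled to the same total, in none of these 3 past the threshold. Ces1d, a carboxylesterase that acts on stored lipid, was at 1295, 1037 and 2526 in fat-free TAC and 332, 2058 and 829 in high-fat TAC libraries, against 5362, 4875 and 5063 in fat-free sham and 7351 and 6556 in high-fat sham libraries, and fell by 2.34 ± 0.43.

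Branched-chain amino acid catabolism fell almost as a block. In this list 21 of 23 genes fell, 1 rose and 1 did not pass, with a median of -0.64, and 20 of the 21 had no overlap within either diet. Over all genes tested 26.4% were lower and 29.6% had no overlap, in either direction. Bckdhb, a subunit of the branched-chain ketoacid dehydrogenase that commits these amino acids to breakdown, was at 1049, 1127 and 1482 in fat-free TAC and 602, 1106 and 984 in high-fat TAC libraries, against 1988, 2281 and 1909 in fat-free sham and 1997 and 1925 in high-fat sham libraries, a fold change of -0.95 ± 0.16 (adjusted p = 0.00134). The acyl-CoA dehydrogenases Acadsb and Acad8 fell by 0.55 and 0.43. The gene that rose was Bcat1, the cytosolic transaminase that takes the first, reversible step (1.29 ± 0.34). Of 23 other genes of amino acid and one-carbon catabolism 14 fell, with Maob, monoamine oxidase B, lower by 1.01 and the alanine transaminase Gpt2 by 1.11. Inmt, an amine N-methyltransferase (chr6:55170627-55174990, mm10), had the largest fall of the genes named by size. It was at 160, 17 and 84 in fat-free TAC and 36, 124 and 13 in high-fat TAC libraries, against 822, 668 and 654 in fat-free sham and 288 and 590 in high-fat sham libraries, a fold change of -3.44 ± 0.60.

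In 5 lists of nuclear genes for mitochondria most members were called lower, by small amounts, beside 26.4% of all genes tested. Of 79 nuclear subunits of oxidative phosphorylation 75 fell, 1 rose and 3 did not pass, with a median of -0.52. On the fat-free diet alone 0 of the 79 passed in limma (11 at an unadjusted p under 0.05), and on the high-fat diet alone 77 did, with medians of -0.28 and -0.79, but the test of the difference between diets called 0 genes of the table. The count was 54 without high-fat sham replicate 2 and 54 with each library scaled to the same total. Ndufa13, a subunit of complex I, was at 10920, 11605 and 14872 in fat-free TAC and 7805, 11548 and 10108 in high-fat TAC libraries, against 15102, 18842 and 16032 in fat-free sham and 18795 and 16588 in high-fat sham libraries, a fold change of -0.62 ± 0.14. Of the 30 genes of the tricarboxylic acid cycle and pyruvate entry 26 fell, including Idh3g, a subunit of isocitrate dehydrogenase (-0.67), and Pcx, pyruvate carboxylase (-0.36, and -0.09, no longer called, with each library scaled to the same total). That count was 16 without high-fat sham replicate 2 and 17 without high-fat sham replicate 3. Of 23 regulators of mitochondrial biogenesis 17 fell, among them Esrra, the estrogen-related receptor alpha (-0.58), and Polg2, a subunit of the mitochondrial DNA polymerase (-0.81). Of 21 genes of mitochondrial dynamics and mitophagy 16 fell and 0 rose. With each library scaled to the same total these counts of genes that fell were 15 for the tricarboxylic acid cycle, 10 for biogenesis regulators and 6 for dynamics and mitophagy, where 3 rose. Within the fat-free diet 3 of the tricarboxylic acid cycle, 5 of the biogenesis and 4 of the dynamics genes passed. Within the high-fat diet 29, 16 and 14 did. Pink1, the kinase that marks damaged mitochondria, was at 13058, 11630 and 16950 in fat-free TAC and 7250, 17287 and 10405 in high-fat TAC libraries, against 26153, 26861 and 25289 in fat-free sham and 31180 and 29137 in high-fat sham libraries, a fold change of -1.17 ± 0.20. Of 77 mitochondrial ribosomal proteins 57 fell, by small steps (median -0.33), and with each library scaled to the same total 15 were lower and 8 higher. Of the 77, 1 passed within the fat-free and 58 within the high-fat diet. The summed ventricular muscle markers were also lower in high-fat TAC (1135379 to 1768569) than in high-fat sham libraries (2176708 to 2305943) and overlapped on the fat-free diet (1746411 to 2141910 in TAC, 1845721 to 2106117 in sham). The part of muscle cell content in these falls was not tested.

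The mitochondrial genome itself gave a call for 5 of 12 genes, all lower (8 without high-fat TAC replicate 1), although 9 of the 12 had no overlap within either diet. Over all genes tested 26.4% were lower and 29.6% had no overlap, in either direction. mt-Co1, the largest subunit of cytochrome oxidase, was at 2194975, 2380455 and 2875483 in fat-free TAC and 1753876, 3143172 and 2958923 in high-fat TAC libraries, against 3300165, 3722129 and 3098681 in fat-free sham and 4885890 and 4806795 in high-fat sham libraries. The libraries were apart in both diets, and yet the fold change of -0.66 did not pass (adjusted p = 0.518). mt-Co1 was named after its values were seen. With 1 prior variance for all genes in place of the trend, an alternative chosen after seeing the data, mt-Co1 passed (adjusted p = 0.0128) and 10 of the 12 genes were lower. mt-Nd3, with far fewer reads, fell by 1.01 ± 0.16. Nuclear copies of the mitochondrial genome can share these reads, which makes the values of single genes uncertain.

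Most interferon response genes were higher in TAC, with median fold changes of 0.85 with the fat-free and 0.78 with the high-fat diet. Among these 34 of 40 passed as higher and 6 did not pass. All 40 had positive fold changes in both diets, beside a shared sign in 80.7% of all genes tested. Oasl2, a sensor of the oligoadenylate synthetase family, was at 590, 469 and 463 in fat-free TAC and 419, 534 and 555 in high-fat TAC libraries, against 204, 221 and 153 in fat-free sham and 170 and 174 in high-fat sham libraries, a fold change of 1.46 ± 0.12 (adjusted p = 3.03e-05). Lgals3bp, a secreted galectin ligand, rose by 1.51 ± 0.12, and Bst2, the tether of enveloped viruses, by 1.10 ± 0.10. Ifit3, an interferon-induced protein that stabilises Ifit1 in antiviral complexes, was at 628, 569 and 458 in fat-free TAC and 356, 494 and 761 in high-fat TAC libraries, against 215, 197 and 191 in fat-free sham and 183 and 189 in high-fat sham libraries, a rise of 1.45, and reads may be shared with its near-identical copy. Of 24 antigen presentation genes 17 rose and 7 did not pass. The peptide transporter Tap1, at 543, 411 and 529 in fat-free TAC and 453, 512 and 540 in high-fat TAC libraries, against 218, 225 and 252 in fat-free sham and 233 and 228 in high-fat sham libraries, rose by 1.10 ± 0.09 with 1.08 with the fat-free and 1.11 with the high-fat diet. B2m, the light chain of class I molecules, rose by 0.99 and H2-D1, a heavy chain, by 0.72.

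The 250 bases before the start of Ifit3 in RefSeq (build GRCm38.p6, plus strand, chr19:34583279-34583528) are shown because they carry 3 copies of the letters GAAANNGAA, part of the interferon-stimulated response element, all on the opposite strand and marked in capitals.
Ifit3: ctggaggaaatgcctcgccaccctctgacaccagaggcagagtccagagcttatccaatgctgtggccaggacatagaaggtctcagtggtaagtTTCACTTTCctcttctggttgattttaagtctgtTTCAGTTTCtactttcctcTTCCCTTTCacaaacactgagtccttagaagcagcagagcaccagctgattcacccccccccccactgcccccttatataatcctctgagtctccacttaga
In windows of 300 bases GAAANNGAA stood on either strand in 20 of 31 promoters found for the interferon list (64.5%) and in 8.57% of all promoters of the table. For the falling fatty acid list, TCAAGGTCA, the estrogen-related receptor element, stood in 1 of 29 promoters found and in 0.407% of all, and the window of Acadm held none of the 6 motifs searched, which says only that those letters are not in it.

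Macrophage and other immune genes were also higher. Macrophage and monocyte markers were called higher in 13 of 14 cases, with a median of 1.17. Trem2, a lipid receptor of tissue macrophages, was at 331, 200 and 133 in fat-free TAC and 329, 160 and 186 in high-fat TAC libraries, against 43, 42 and 40 in fat-free sham and 21 and 51 in high-fat sham libraries, a rise of 2.45 ± 0.29. The complement genes C1qa, C1qb and C1qc rose by 1.11, 1.23 and 1.05, and of 22 complement genes 12 rose, 1 fell and 9 missed the threshold. Among 37 cytokines, chemokines and receptors 22 rose, 5 fell and 10 missed the threshold, beside 26.1% higher and 26.4% lower over all genes tested. Tnfrsf12a, the receptor of the cytokine TWEAK, was at 3183, 3817 and 3493 in fat-free TAC and 4170, 3043 and 3861 in high-fat TAC libraries, against 1290, 1616 and 1131 in fat-free sham and 1173 and 1256 in high-fat sham libraries, a rise of 1.48 ± 0.11 (adjusted p = 1.72e-05). Cxcl10, an interferon-induced chemokine, rose by 3.06, and Ccl11, eotaxin, fell by 1.90, with 41, 21 and 36 in fat-free TAC and 13, 33 and 10 in high-fat TAC libraries, against 139, 168 and 73 in fat-free sham and 55 and 74 in high-fat sham libraries. Retnla, a resistin-like protein made by alternatively activated macrophages, fell by 2.45 ± 0.33. The summed macrophage markers were 13923 to 28031 in TAC and 8061 to 12240 in sham libraries, without overlap. Trem2, C1qa, C1qb and C1qc are themselves part of this sum. Whether the other immune genes moved with it was not tested, nor was the part of cell number. Only 3 of 8 neutrophil and 4 of 13 lymphocyte markers were high enough to be tested, and 1 of each rose, Csf3r by 1.25 and Cd4 by 0.92. Cd4 is also expressed outside T cells, and its call was lost without the 3 fat-free libraries over 1000 Myl7 (0.60, adjusted p = 0.104).

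Most cytoskeleton and cell surface genes tested were higher, beside 26.1% of all genes tested. Of 34 tubulin and actin cytoskeleton genes 23 rose, including the actin-binding Tmsb10 (1.55), Tagln2 (1.15) and tropomyosin Tpm4 (1.05). Of 31 integrins and adhesion genes 22 rose and 4 fell. Only 2 fell without fat-free sham replicate 2 or high-fat sham replicate 2 or 3, and 1 with each library scaled to the same total. Itga9, the tenascin-binding integrin chain, rose by 1.18 ± 0.09 with 1.18 on either diet, and Itga5, the fibronectin receptor chain, by 0.89. Of 18 annexins and S100 genes 13 rose, among them Anxa2 (1.40) and S100a11 (1.68), and Anxa11 fell (-0.52). Sprr1a, a small proline-rich protein induced by stress in heart muscle cells, had the largest rise of all genes named by size. It was at 1468, 1358 and 90 in fat-free TAC and 3305, 463 and 574 in high-fat TAC libraries, against 2, 0 and 6 in fat-free sham and 4 and 6 in high-fat sham libraries, a fold change of 7.53 ± 0.81 on the log2 scale after 1 is added to each value (8.17 without fat-free TAC replicate 3).

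**Figure D5:**
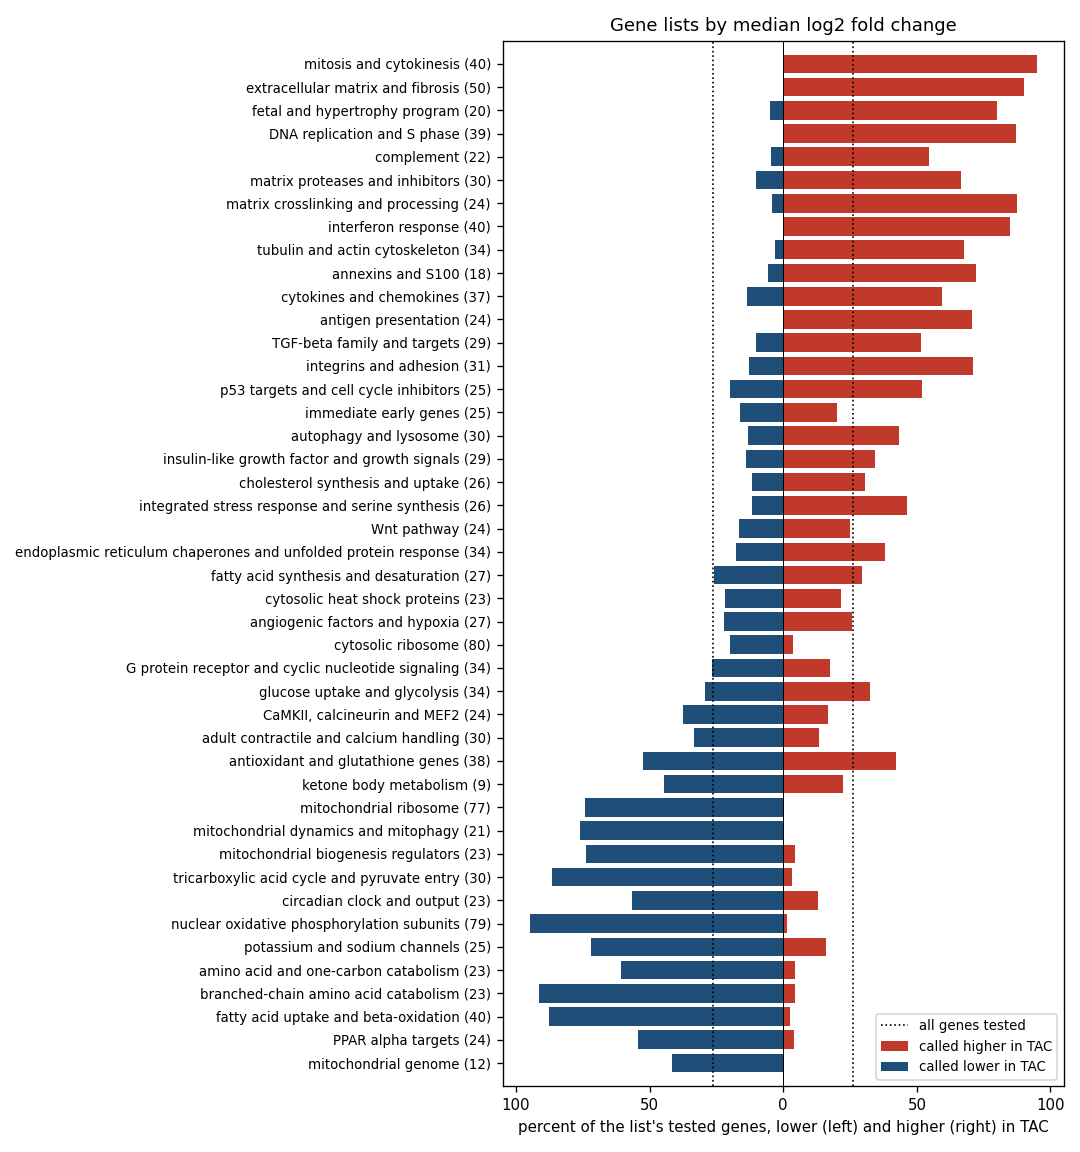
Percent of the tested genes of 44 lists called higher (right) and lower (left) in TAC with diet as a block, ordered by the median log2 fold change, with the number tested in parentheses and dotted lines at 26.1% higher and 26.4% lower, the shares over all genes tested. Mitosis, matrix, fetal and DNA replication genes stand at the top and mitochondrial, PPAR alpha, fatty acid and branched-chain amino acid genes at the bottom.

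Few cytosolic ribosomal genes were called. Of 80 cytosolic ribosomal proteins 3 rose and 16 fell, a share under the 26.4% of all genes, with a median of -0.05, and the direction turned to 50 higher and 0 lower with each library scaled to the same total. The 16 was 7 without high-fat sham replicate 2 or replicate 3 and 8 without fat-free TAC replicate 1. In the list for glucose uptake and glycolysis, 11 of 34 genes were called higher and 10 lower, and 17 and 6 with each library scaled to the same total. Beside 26.1% higher and 26.4% lower over all genes tested, the 11 and 10 are near the background and no result about the list. Pfkp, the platelet-type phosphofructokinase, rose by 1.38 and the lactate exporter Slc16a3 by 2.28, while Pfkfb1, an enzyme that makes the activator of phosphofructokinase, fell by 2.08. Without high-fat sham replicate 2 these counts were 7 and 6, and 6 fell without high-fat sham replicate 3. Of 12 endothelial markers 3 rose, near the 26.1% of all genes tested, and 9 did not pass, with a median of 0.10. Only 1 rose without any 1 of fat-free TAC replicates 1, 2 and 3, high-fat TAC replicate 3 or fat-free sham replicates 1 and 2, and 8 rose with each library scaled to the same total. Pecam1, an endothelial junction protein, rose by 0.40. Of 7 fat cell markers tested 0 passed in limma (0 at an unadjusted p under 0.05), but 4 were called lower without high-fat TAC replicate 1. The 7 had medians of -3.64 with the fat-free and 2.48 with the high-fat diet. Adipoq, the fat cell hormone adiponectin, was at 58, 3 and 2 in fat-free TAC and 242, 0 and 1 in high-fat TAC libraries, against 153, 95 and 88 in fat-free sham and 0 and 0 in high-fat sham libraries, and Myl7 likewise had -4.27 with the fat-free and 4.14 with the high-fat diet. The high-fat fold changes of Adipoq and Myl7 rest on 1 library, TAC replicate 1, and the other high-fat TAC libraries were near the sham values. An additive diet term averages such opposite fold changes to near 0 (-0.69 ± 1.61 and -0.53 ± 2.31). In all 49 genes tested had TAC and sham libraries apart in opposite directions in the 2 diets, and 0 of them passed with diet as a block in limma, also 0 at an unadjusted p under 0.05.

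Without the 4 libraries over 1000 Myl7 the test called 6668 genes, 6000 of them shared with the same sign with the 7367. In that fit 46 matrix, 38 mitosis, 36 interferon, 16 fetal and 12 macrophage genes were called higher and 77 oxidative phosphorylation, 33 fatty acid and 22 branched-chain genes lower. Other counts moved more. It called 70 mitochondrial ribosomal and 21 cytosolic ribosomal proteins lower, 18 integrin and adhesion genes and 7 glycolysis genes higher, and 9 clock genes lower. Of 25 immediate early genes it called 10 higher and 0 lower, against 5 and 4 with all 11 libraries. In the authors' deposited table, 3485 of the tested genes passed adjusted p under 0.1 with the fat-free and 5729 with the high-fat diet, and 2786 in both. Of these 2786, 2778 were also called with diet as a block. Neither diet of the authors' deposited table called 1680 of the genes called here with diet as a block, and 741 genes that passed there in at least 1 diet were not called here.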

How the data were processed

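RNA-seq of mouse heart was taken as deposited. Reads were counted per gene, normalized and tested with STAR, Subread, featureCounts and DESeq2 on build mm10, per the submitters' processing notes, which give no versions; strand setting is not given in the sources used here. The deposited values are scores: the authors' size-factor-normalized counts, rounded to whole numbers and scaled within each diet, per the file headers and values. The authors also deposited adjusted p-values and shrunken log2 fold changes per diet. Raw counts were not used, so no count model was run. Both tables (27179 genes each) were joined on gene ID, and 27 symbols stored as dates were restored from RefSeq. limma 3.58.1 (R 4.3.3) was fitted to log2(value + 1) with diet and surgery as terms, a mean-variance trend and Benjamini-Hochberg adjustment, with calls at adjusted p under 0.1, on genes with at least 10 in at least 5 libraries. Fold changes are on the log2(value + 1) scale, which understates those of low genes, and are given with SE. The surgery by diet interaction and the contrasts within each diet came from the same libraries. Tests were two-sided, and the fit was tested on simulated data. Totals after normalization, 25906622 to 39699027, are not read depth, which is unknown. Figures and tables used Python 3.11.15.

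Named genes were the 12 largest rises and 12 largest falls with no overlap within either diet and a mean of at least 50, the 10 of smallest adjusted p, up to 3 per list and 1 against its majority, the 10 of smallest adjusted p called in neither diet alone, and 14 set genes. Ifit3 was chosen for its promoter. A few genes that the rule names are not reported here. The comparison, lists and markers were chosen with earlier results of these data known. Exon overlaps were taken from GENCODE vM21 at 10% or more of exon bases. Alternatives covered pseudocount, filter, scaling, threshold, weights, prior, covariates, a replicate block and libraries left out.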

Additional observations from a re-analysis of the deposited data

How the results depend on the processing

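The count of 7367 called genes with diet as a block stayed within 1.5 times under every other pseudocount, filter, scaling, threshold, weight, prior, covariate and left-out library tried with both diets, from 5744 without high-fat sham replicate 2 to 8645 with library weights, and between 5744 and 7636 with 1 library left out. The split moved with the scale. With each library at the same total 6661 genes were higher and 1234 lower (median 0.25), and with the same total outside the mitochondrial genome 2342 were lower (median 0.10). The fat-free libraries alone called 3391 genes (2005 higher, 1386 lower) and the high-fat libraries alone 4441 (2362 higher, 2079 lower), with fewer samples. With 1 library left out the count within the fat-free diet ranged from 1216 to 4508, that within the high-fat diet from 728 to 6689, and that called in neither from 1010 to 3287. With the diets fitted separately the last was 2245. The difference between diets called 0 genes in each of the settings run. With each library at the same total Pcbp2 stood at 0.0296, Ppp4r2 at 0.0614 and Pdk4 at 0.0376, and Pdk4 stood at 0.30 without the 3 fat-free and 0.54 without the 4 libraries over 1000 Myl7. Myl7 stood at 0.0872 with adipocyte markers as a covariate (its own level as covariate gives no value), 1.70 without the 3 fat-free libraries, 4.14 in the high-fat libraries alone, and -2.33 to 0.59 with 1 library left out. Adipoq stood at 0.20 without the 3 fat-free libraries, 2.97 in the high-fat libraries alone and -1.97 to 0.0702 with 1 library left out. The cause was not tested. Replicate numbers are shared between TAC and sham, but same-numbered libraries did not deviate together (correlations 0.40, 0.11 and -0.14 in fat-free, 0.18 and -0.15 in high-fat libraries), so they were not taken as pairs. With the number as a replicate block 7161 genes were called, 6737 of them shared, and the difference between diets called 0. Leaving out the 4 libraries over 1000 Myl7, leaving out libraries within a diet, and 1 prior variance for all genes were chosen after seeing the data. The planned combination of the authors' p-values was not run, since only adjusted p-values were used here. Precision rests on 2 high-fat sham libraries, and depth is unknown.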

Other observations

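Genes that handle oxidants and glutathione split in both directions. Of 38 tested, 20 fell and 16 rose. All 38 had the same sign on both diets, beside 80.7% of all genes tested. For called genes the choice by the summed effect largely fixes this. Medians were -0.13 with the fat-free and -0.32 with the high-fat diet, with 16 and 29 genes called within them. Gstm1, a glutathione transferase, was at 2357, 2084 and 2971 in fat-free TAC and 1307, 2504 and 1741 in high-fat TAC libraries, against 4795, 4895 and 5349 in fat-free sham and 5047 and 4839 in high-fat sham libraries, a fold change of -1.23 ± 0.16 (limma, adjusted p = 0.000365). Cybb, the catalytic subunit of the phagocyte oxidase, rose by 1.24 ± 0.17, beside the rise of the macrophage markers. Without high-fat sham replicate 2 the number that rose was 9. With each library scaled to the same total 13 fell and 17 rose.

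Of 23 genes of the circadian clock and its output 13 fell, 3 rose and 7 did not pass, beside 26.4% lower and 26.1% higher over all genes tested. Only 8 fell with each library scaled to the same total. Within the fat-free diet 3 of the 23 passed and within the high-fat diet 15, beside 22.9% and 42.2% of all genes. Nr1d1, the clock repressor REV-ERB alpha, was at 2580, 1800 and 1748 in fat-free TAC and 1640, 1775 and 1521 in high-fat TAC libraries, against 3357, 3320 and 3142 in fat-free sham and 2642 and 2503 in high-fat sham libraries, a fold change of -0.68 ± 0.10. Hlf, a clock output factor, fell by 1.39 ± 0.25. The labels give no time of day for collection. Of 7 Schwann cell and neuron markers 4 fell, among them the potassium channel Kcna1 (-1.40) and the transcription factor Sox10 (-1.20). High-fat TAC replicate 1 had the highest summed level of this list (1025), and without it 6 of the markers fell.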
